A study of Mus musculus with 8 samples.

Results

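The IL-12 family was examined in tumor-associated macrophages (TAMs) through 8 of the 53247 genes of the deposited expression table, taken by gene symbol: the 5 subunit genes Il12a, Il23a, Il27, Il12b and Ebi3 and the 3 receptor chain genes Il12rb1, Il12rb2 and Il27ra. The TAMs had been gated on CD45, CD11b, MHCII and F4/80, all positive, in s.c. tumors grown for 14 days from LLC cells, which are a Lewis lung carcinoma line of the mouse. The 4 WT and the 4 miR-21-/- samples (labelled miR-21 null) came from C57/BL6 mice given as 10 weeks old, and their mRNA was sequenced. The deletion was global, so that the whole host, and not only its macrophages, lacked miR-21, while the implanted LLC cells were the same line in both groups. For miR-21-/- replicate 1 the title gives a double number, with no word on whether mice were pooled, and this library counted as 1 sample. The samples are called biological replicates, but no label says which mouse each came from, so that p-values measure the spread between these samples.

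The cytokines of the IL-12 family are heterodimers of a helical subunit and a soluble subunit that resembles a cytokine receptor. The p35 chain (Il12a) joins p40 (Il12b) to make IL-12, p19 (Il23a) joins the same p40 to make IL-23, and p28 (Il27) joins Ebi3 to make IL-27. IL-12 from macrophages and dendritic cells drives IFN-γ production and cytotoxicity in T and NK cells through a receptor of Il12rb1 and Il12rb2, IL-23 is sensed by Il12rb1 with Il23r, and IL-27 by Il27ra with Il6st (gp130).

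Values are CPM, counts per 1e+06 reads, and a fold change above 1 means a higher value in miR-21-/- TAMs. The commonest small step of the low values, 0.0300 to 0.0495 CPM, was taken as a single read. On that basis the libraries held 20.2 to 33.4 times 1e+06 reads, and the read numbers given below rest on the same step. log2(CPM + 1) was fitted with limma over the 13850 genes that passed a filter on low values (a mean of 1 or more per 1e+06 of the summed columns), a scale that understates the change of low genes. To be called, a gene had to differ by more than 1.5-fold with a p of at most 0.005 after Benjamini-Hochberg adjustment. The median log2 fold change of all tested genes was -0.10. Mir21a, the deleted gene, was listed at 0.0001 CPM, the lowest value of the table, in all 8 samples, which leaves the genotypes without a check by this gene. The macrophage markers, 12 of 12 tested, summed to 19175 to 21276 CPM in WT TAMs and 19767 to 22992 CPM in the miR-21-/- TAMs, with 1 called higher (Fcgr1, log2 fold change 0.75) and 0 lower. Their members did not move together, since Adgre1, which encodes F4/80 (-0.38, adjusted p = 0.00140 from limma), and Csf1r, the CSF-1 receptor (-0.48, adjusted p = 0.00538 from limma), lay lower without overlap and were not called. These were 2 of the 12 markers, while 25.7% of all tested genes lay lower without overlap. Marker sums of some other cell types were lower, while those of T, NK, dendritic and B cells are given further below. Neutrophil sums went from 822 to 1236 CPM in WT samples to 607 to 789 CPM in miR-21-/- samples, without overlap. Most of that sum came from S100a8, S100a9 and Csf3r. Ly6g was the 1 marker of the 7 with a positive log2 fold change (0.31, not called). Sums of epithelial tumor cells went from 18.8 to 24.8 CPM to 12.7 to 17.9 CPM, also without overlap. Stromal and vessel sums overlapped (246 to 441 CPM and 216 to 298 CPM), although 4 genes of that list were called lower, Col3a1 (-2.51), Col1a1 (-2.29), Pdgfra (-1.89) and Pdgfrb (-1.22). The part of these cells in the members' values was not tested.

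In miR-21-/- TAMs, the receptor chain Il12rb1 rose 3.80-fold in mean CPM and the IL-27 subunit Il27 2.19-fold, while Ebi3, the partner of Il27, fell to 0.631 of its WT mean. These were the 3 members called, 2 higher and 1 lower, among the 6 members that passed the filter. Over all tested genes, 2.89% were called higher and 4.23% lower. Il12a and Il12b, the chains of IL-12 itself, were under the filter and too low for the fit across all genes. Il23a, Il12rb2 and Il27ra were tested and not called.

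**Figure D1:**
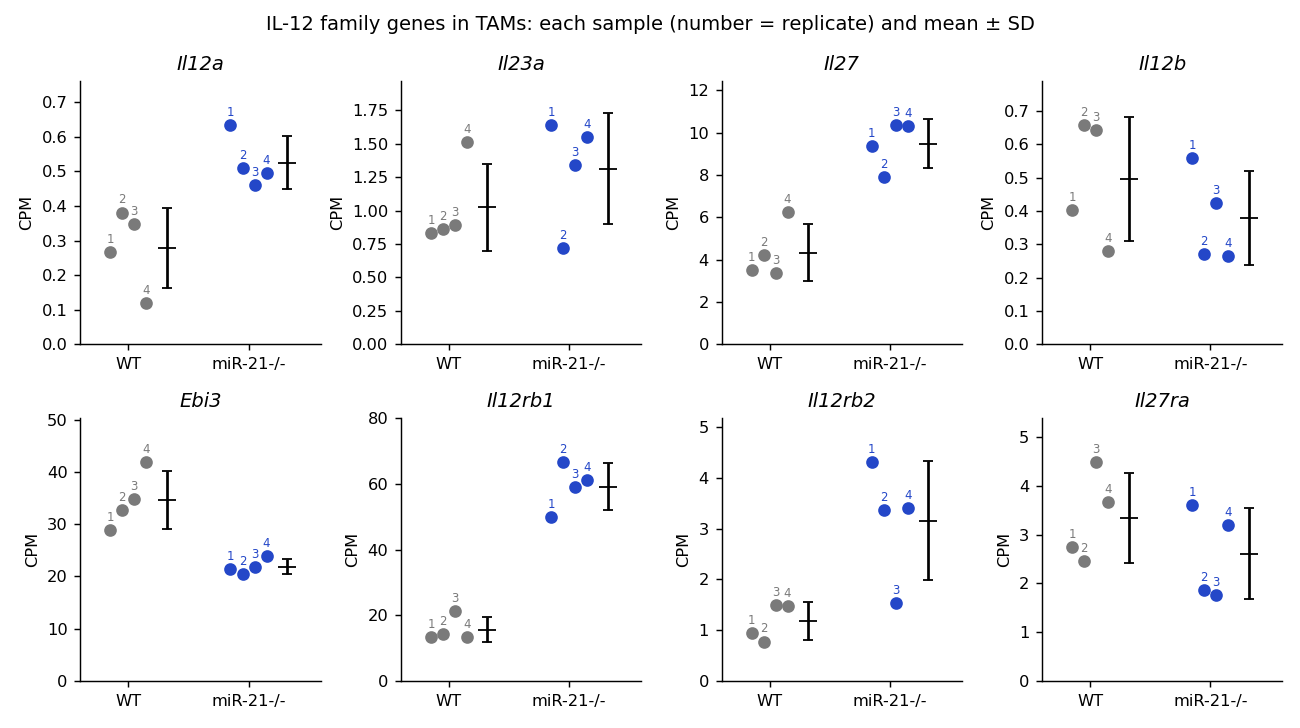
CPM of each of the 8 genes in each sample, WT in grey and miR-21-/- in blue, with the replicate number above each point, the mean ± SD (n = 4) in black, and a vertical axis from 0 that differs between panels. The groups are separate for Il12a, Il27, Ebi3 and Il12rb1, touch within 0.0286 CPM for Il12rb2, and overlap for Il23a, Il12b and Il27ra.

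Il12a (chromosome 3, 68690644 to 68698547, plus strand, GRCm38) encodes p35, the chain found only in IL-12 and IL-35. It is also the member with a match to the seed of miR-21, the bases 2 to 8 of the miRNA that pair with its targets, and these sequences are shown because the deleted gene encodes that seed. The mature miRNA is from RefSeq (GRCm38.p6, chr11:86584120-86584141, minus strand), with the seed in capitals. The 2 matches in the 3′ UTR of Il12a (497 bases, GENCODE vM21, GRCm38) lie at chr3:68698323-68698352 and chr3:68698134-68698161, both on the plus strand, with the 8-base and the 6-base match in capitals.
mmu-miR-21a-5p: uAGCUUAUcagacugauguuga
Il12a 8-base match: agcaagaactgATAAGCTAttgtttttgtg
Il12a 6-base match: ctggtgggcctTAAGCTccttcaggaat
The other 7 members had no match of 6 or more bases in their longest annotated 3′ UTRs, which span 245 to 885 bases. Of 11449 tested genes with an annotated 3′ UTR, 2.24% held the 8-base match and 26.6% a match of at least 6 bases. A match is a stretch of letters and no measure of binding.

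Il12a was listed at 0.268, 0.381, 0.346 and 0.120 CPM in WT TAMs and at 0.635, 0.510, 0.461 and 0.496 CPM in miR-21-/- TAMs, replicates 1 to 4. Every miR-21-/- sample was above every WT sample. These values stand for 3 to 11 reads in WT and 12 to 17 reads in miR-21-/- libraries, so that a few reads decide each of them. The mean rose from 0.279 ± 0.116 to 0.525 ± 0.0757 CPM (SD of 4 samples each; p = 0.0286 by a two-sided exact permutation test, for which no smaller p exists with 4 against 4). Without miR-21-/- replicate 1 the exact permutation test gave p = 0.0571. Fitted by limma with no filter on low values, the log2 fold change was 0.26 (adjusted p = 0.0572). Of the 4582 genes under the filter and above the lowest listed value in all samples, 3.03% lay higher in miR-21-/- TAMs without overlap, as Il12a did.

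Il23a (chromosome 10, 128296139 to 128298752, minus strand) encodes p19, which makes IL-23 with p40. Its values were 0.836, 0.866, 0.891 and 1.51 CPM in WT TAMs, and 1.64, 0.720, 1.34 and 1.55 CPM in the miR-21-/- TAMs. The groups overlapped, with WT replicate 4 among the high miR-21-/- samples and miR-21-/- replicate 2 lowest of all 8. Il23a was not called (log2 fold change 0.19, 95% interval -0.18 to 0.55, adjusted p = 0.407 from limma).

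Il27 (chromosome 7, 126589010 to 126594941, minus strand) encodes p28, the helical chain of IL-27. It was at 3.48, 4.20, 3.38 and 6.25 CPM in WT TAMs, and at 9.35, 7.88, 10.4 and 10.3 CPM in the miR-21-/- TAMs. The lowest miR-21-/- sample was 1.62 CPM above the highest WT sample, a separation in that direction shown by 9.44% of all tested genes. On the log2 scale the rise was 1.00 (standard error 0.16, 95% interval 0.64 to 1.35, adjusted p = 0.00129 from limma). Il27 fell short of the threshold with a pseudocount of 10 (log2 fold change 0.45), with no filter on low values (adjusted p = 0.00816 from limma) and without miR-21-/- replicate 3 (adjusted p = 0.00522 from limma). Its annotation shares 103 exon bases with Apobr on the other strand, whose mean was 162 ± 11.2 CPM in WT TAMs, and 169 ± 7.41 CPM in the miR-21-/- TAMs (adjusted p = 0.477 from limma). The values of Il27 were not whole reads in 7 of the 8 samples (tolerance 0.02 of a read), and reads from the shared bases cannot be assigned to either gene.

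Il12b (chromosome 11, 44400063 to 44414033, plus strand) encodes p40, which both IL-12 and IL-23 need. Its values were 0.401, 0.658, 0.643 and 0.279 CPM in WT TAMs, and 0.560, 0.270, 0.422 and 0.265 CPM in the miR-21-/- TAMs, 7 to 19 reads per library. The groups overlapped over most of their range. The means were 0.495 ± 0.186 and 0.379 ± 0.141 CPM (SD of 4 samples each; exact permutation test, two-sided, p = 0.343). Il12a and Il12b are therefore the subunits too low to judge by the fit used for the others.

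Ebi3 (chromosome 17, 55952623 to 55957021, plus strand) encodes the receptor-like chain that completes IL-27, and also pairs with p35 in IL-35. Its values were 29.0, 32.8, 34.9 and 42.0 CPM in WT TAMs, and 21.4, 20.5, 21.8 and 23.9 CPM in the miR-21-/- TAMs. All miR-21-/- samples lay below all WT samples, a separation in that direction shown by 25.7% of all tested genes. The log2 fold change was -0.63 (standard error 0.10, 95% interval -0.86 to -0.40, adjusted p = 0.00137 from limma). The size of this fall is close to the 1.5-fold limit, and it was no longer called with median-of-ratios scaling (-0.52), with quantile normalization (-0.54), with a pseudocount of 10 (-0.48) and without WT replicate 4 (-0.54). Without WT replicate 3 or miR-21-/- replicate 2 the limma adjusted p was 0.00527 and 0.00543, and with no filter 0.00763. The gene shares exon bases with the antisense gene Gm16712 (5.15 ± 0.728 CPM in WT, 3.81 ± 0.682 CPM in miR-21-/- TAMs, SD of 4 samples each). Without a stated strand rule, reads from the 270 shared bases cannot be assigned to either gene.

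B cells also express Ebi3, and a pair of genes of the B cell marker list moved with it. The 7 B cell markers summed to 29.7 to 36.8 CPM in WT TAMs and 7.33 to 15.9 CPM in the miR-21-/- TAMs. Most of that sum came from the pair that passed the filter, Blnk (log2 fold change -1.98) and Cd79b (-1.45), both called lower. The other 5, among them Cd79a, Ms4a1, Pax5 and Fcer2a, were under the filter and summed to 1.63 to 4.91 CPM in WT samples and 0.811 to 6.90 CPM in miR-21-/- samples, with overlap, and no marker of the list was at the lowest value in all samples. Dendritic cell markers, 10 of 11 tested with 0 called higher and 1 called lower (Dpp4), summed to 36.4 to 52.8 CPM in WT TAMs and 32.0 to 52.6 CPM in the miR-21-/- TAMs. Within that list, 8 of the 10 tested genes had negative log2 fold changes (list median -0.41), among them Cd209a (-1.28), Fscn1 (-0.69) and Flt3 (-0.50), while Clec9a and Xcr1, markers of cross-presenting dendritic cells, had positive ones, and none of these 5 was called. Clec9a was at 2.54 ± 0.195 CPM in WT samples and 8.18 ± 4.29 CPM in miR-21-/- samples (log2 fold change 1.26, limma adjusted p = 0.00532). It lay higher without overlap, as did 9.44% of all tested genes. Xcr1 had 1.06 (limma adjusted p = 0.117). The part of these cells in the values of Ebi3 and Il27 was not tested. In bulk samples, fewer cells of a type and less RNA per cell cannot be told apart.

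Within IL-27, the chains moved in opposite directions. The ratio of Il27 to Ebi3 CPM was 0.120, 0.128, 0.0970 and 0.149 in WT replicates 1 to 4 and 0.438, 0.384, 0.476 and 0.432 in miR-21-/- replicates 1 to 4. The ratio does not depend on how the samples are scaled to each other, and its lowest miR-21-/- value was above its highest WT value. Since Il27 lay higher and Ebi3 lower, each without overlap, their ratio had to separate as well and is no further result. For the chains of IL-12, the ratio of Il12a to Il12b ranged from 0.429 to 0.667 in WT and from 1.09 to 1.89 in miR-21-/- TAMs, also without overlap but from few reads. The ratio of Il23a to Il12b overlapped between genotypes, at 1.32 to 5.43 in WT and 2.67 to 5.87 in miR-21-/- TAMs.

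**Figure D2:**
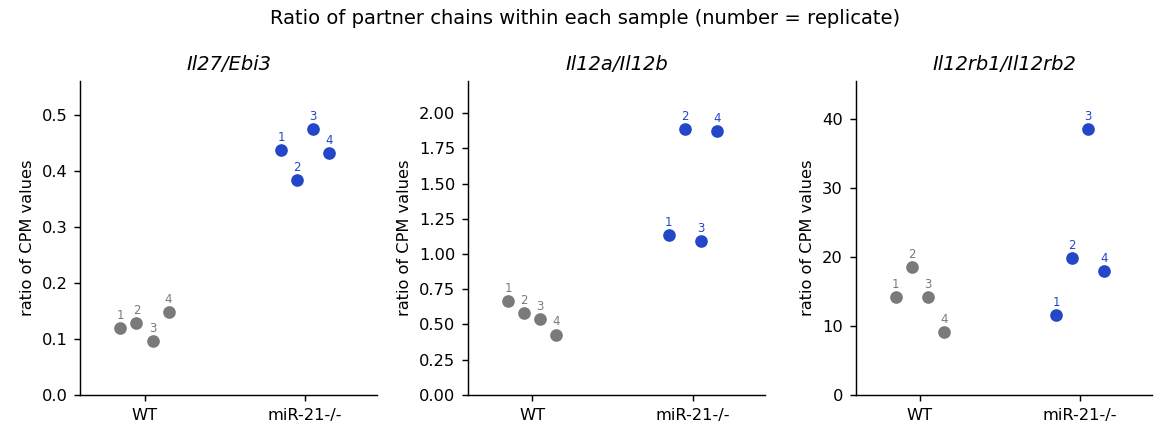
Ratio of the CPM values of Il27 to Ebi3, Il12a to Il12b and Il12rb1 to Il12rb2 within each sample, WT in grey and miR-21-/- in blue, with replicate numbers and axes from 0. The first ratio is 0.0970 to 0.149 in WT and 0.384 to 0.476 in miR-21-/- samples, the second is separate as well, and the third overlaps.

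Il12rb1 (chromosome 8, 70808449 to 70821424, plus strand) encodes the receptor chain shared by IL-12 and IL-23, and showed the largest change of the 8 members. It was at 13.3, 14.3, 21.2 and 13.5 CPM in WT TAMs, and at 49.9, 66.9, 59.0 and 61.2 CPM in the miR-21-/- TAMs. The gap between the highest WT and the lowest miR-21-/- sample was 28.6 CPM, wider than the range within either genotype. The mean rose from 15.6 ± 3.78 to 59.2 ± 7.06 CPM (SD of 4 samples each), which was 1.88 on the log2 scale (standard error 0.14, 95% interval 1.56 to 2.19, adjusted p = 1.90e-05 from limma). It was called under all 17 alternatives tried, with log2 fold changes of 1.44 to 2.03, and no other annotated gene overlaps it.

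Il12rb2 (chromosome 6, 67291318 to 67376188, minus strand) encodes the chain that, with Il12rb1, makes the receptor responsive to IL-12, and is known mainly from activated T and NK cells. Its values were 0.940, 0.776, 1.502 and 1.48 CPM in WT TAMs, and 4.32, 3.36, 1.53 and 3.41 CPM in the miR-21-/- TAMs. Of the miR-21-/- samples, 3 were above 3 CPM, while replicate 3 was at the level of the highest WT samples. Il12rb2 was not called (log2 fold change 0.90, standard error 0.22, 95% interval 0.41 to 1.39, adjusted p = 0.0107 from limma), but was called without miR-21-/- replicate 3 (log2 fold change 1.12, adjusted p = 0.00159 from limma). Its exons share 1519 bases with those of Serbp1 on the other strand, a gene at 283 ± 10.2 CPM in WT TAMs, and 244 ± 30.8 CPM in the miR-21-/- TAMs (SD of 4 samples each; adjusted p = 0.0693 from limma). Without a stated strand rule, reads from the shared bases cannot be assigned to either gene, and the values of Il12rb2 are uncertain for that reason.

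Markers of lymphocytes were measured beside both IL-12 receptor chains. The 12 T cell markers, all of them tested, had 0 called higher and 1 lower, Cd4 (log2 fold change -2.35). They summed to 36.6, 50.3, 40.6 and 31.8 CPM in WT and to 59.0, 29.6, 16.2 and 32.1 CPM in miR-21-/- replicates 1 to 4. Cd4 was the largest part of this sum in the WT samples, with a mean of 16.6 CPM (SD 10.0). Its mean over the miR-21-/- samples was 2.19 CPM (SD 1.15), and the sum without Cd4 was not tested. Among the miR-21-/- samples, Il12rb2 followed the order of the T cell sum, highest in replicate 1 and lowest in replicate 3, while Il12rb1 was lowest in replicate 1. Among the WT samples it did not, since Il12rb2 was lowest in replicate 2, where the sum was highest. The sum of the 8 NK cell markers was 22.7, 10.3, 9.03 and 16.7 CPM over miR-21-/- replicates 1 to 4, the order of the T cell sum there. The WT sums of NK markers, 5.23 to 13.1 CPM, had another order, highest in replicate 4, where the T cell sum was lowest. By mean, Prf1 was the largest part of the NK sum in both genotypes. Its mean was 3.85 CPM (SD 2.28) for WT against 9.74 CPM (SD 4.44) for miR-21-/- samples. Of the NK markers, 3 passed the filter and 0 were called, while Ncr1, Klrb1c, Klre1, Klra8 and Eomes were under it. Cd3d, Cd3e and Cd3g, chains of the T cell receptor complex, had log2 fold changes of 0.00, 0.26 and 0.29, none called. Cd8a had 1.28 (adjusted p = 0.00804 from limma, not called) and lay higher without overlap, as did 9.44% of all tested genes. Over the 12 T cell markers, 7 log2 fold changes were positive and 5 negative, with a median of 0.085. No marker of either list was at the lowest value in all samples, and the part of lymphocytes in both receptor values was not tested.

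Il27ra (chromosome 8, 84030294 to 84042589, minus strand) encodes the chain that binds IL-27 with gp130. Its values were 2.74, 2.46, 4.50 and 3.66 CPM in WT TAMs, and 3.62, 1.86, 1.77 and 3.21 CPM in the miR-21-/- TAMs. The groups overlapped, and Il27ra was not called (log2 fold change -0.28, 95% interval -0.73 to 0.18, adjusted p = 0.314 from limma). The ratio of Il27ra to Il12rb1 CPM was 0.172 to 0.271 in WT and 0.0278 to 0.0726 in miR-21-/- TAMs.

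**Figure D3:**
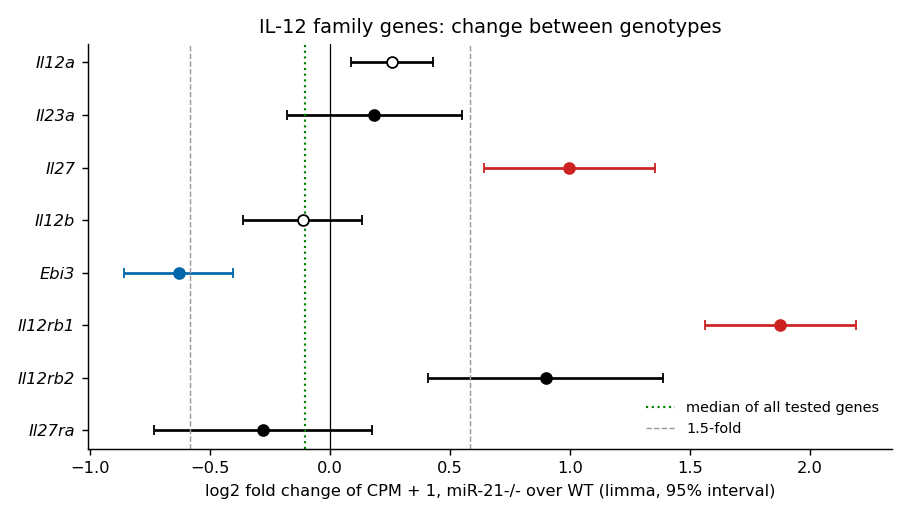
log2 fold change of each gene, miR-21-/- over WT, with its 95% interval from limma, in red for called higher, blue for called lower and black for not called. Open points (Il12a, Il12b) are from the fit with no filter, the dotted line is the median of all tested genes at -0.10, and the dashed lines mark 1.5-fold. The interval of Il12rb1 (1.56 to 2.19) lies apart from those of all other members.

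Levels were compared between genes as CPM per kb of the longest protein-coding transcript. In WT TAMs, Ebi3 stood first with 30.0 ± 4.74 CPM per kb (SD, n = 4), followed by Il12rb1 with 5.43 ± 1.32 and Il27 with 4.24 ± 1.31, whose ranges overlapped. Il27ra (1.25 ± 0.349) and Il23a (0.755 ± 0.239) overlapped each other and lay below them. Il12rb2 (0.392 ± 0.124), Il12b (0.255 ± 0.0958) and Il12a (0.214 ± 0.0892) came last, and neighbours among them did not differ beyond their ranges.

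In miR-21-/- TAMs, Il12rb1 had reached the level of Ebi3, with 20.6 ± 2.46 and 18.96 ± 1.24 CPM per kb, and their ranges overlapped. Il27 came next with 9.28 ± 1.14, below both without overlap. Il12rb2 (1.05 ± 0.390), Il27ra (0.981 ± 0.353) and Il23a (0.967 ± 0.306) could not be ordered. Il12a (0.403 ± 0.0581) was below each of these and above Il12b (0.195 ± 0.0725), with no overlap on either side. By mean level per kb, the 2 chains of IL-12 were the lowest members in both genotypes, and the chains of IL-27 were the highest subunits.

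**Figure D4:**
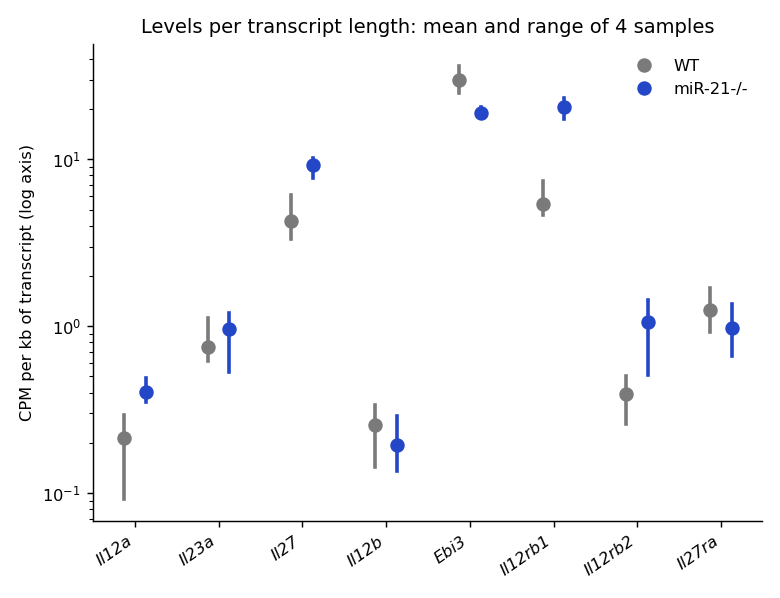
Mean level (points) and range over 4 samples (bars) of each gene as CPM per kb of transcript, on a log axis, WT in grey and miR-21-/- in blue. Levels run from 0.195 CPM per kb for Il12b in miR-21-/- TAMs to 30.0 for Ebi3 in WT TAMs.

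Among all tested genes, those nearest in pattern to each called member were found by the root mean square difference of standardized log2 values over the 8 samples, in which 0 is the same pattern. For Il12rb1 these were Tmem2 (0.0744), Pfkp (0.0918) and M6pr (0.109). Nearest to Il27 were Ezr (0.0921), Cybb (0.185) and Itgb2 (0.191), and nearest to Ebi3 were Klf11 (0.151), Grk2 (0.152) and 0610009O20Rik (0.157). Of the tested members, Il27 and Il12rb1 were closest to each other, at 0.561, farther than these neighbours.

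The RefSeq table held promoters, 250 bases before to 50 after the start, for 4 of the 8 members: Il12a (2 starts), Il12b, Il12rb2 and Ebi3. They were searched on both strands for the STAT motif GAS (TTCNNNGAA, in 8.3% of 32851 promoters), the interferon motif ISRE (GAAANNGAAA, in 3.44%) and the NF-kB consensus (in 4.51%). The stretches below are shown because Ebi3 and Il12rb2 were the members with a match, in capitals; the first is chr17:55952564-55952603 on the plus strand with an NF-kB match, and the second is chr6:67376288-67376326 on the minus strand with a GAS match (GRCm38.p6).
Ebi3 promoter: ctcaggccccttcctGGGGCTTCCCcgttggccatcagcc
Il12rb2 promoter: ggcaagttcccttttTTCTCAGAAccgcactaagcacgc
Il12rb2 also had 1 NF-kB match at its start site. The windows of Il12a and Il12b had none of the 3 motifs, which says only that these letters are not in these windows.

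The partners of the receptors and the JAK-STAT factors behind them were measured next, 12 genes of which 11 were tested, with 2 called higher and 0 lower. Their median log2 fold change was 0.30, against -0.10 over all tested genes. Socs1, a feedback inhibitor of JAK kinases, rose from 5.18 ± 1.09 to 26.2 ± 5.36 CPM (SD of 4 samples each; log2 fold change 2.14). Il6st, the partner of Il27ra, was at 0.30 (limma adjusted p = 0.0291) and Stat4, the main factor behind the IL-12 receptor, at -0.46 (limma adjusted p = 0.0238), neither called. Jak2, which associates with Il12rb2, was under the fold change limit with 0.47 (adjusted p = 0.000348 from limma), and Tyk2, which associates with Il12rb1, was at -0.05. Il23r, needed beside Il12rb1 to sense IL-23, was under the filter. It was listed at the lowest value in WT replicates 1 and 2, had 1 read in each of the other WT libraries, and 5, 1, 2 and 2 reads in miR-21-/- libraries.

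Transcriptional activators of IL-12 family genes were all tested, 18 genes, with 1 called higher and 0 lower and a median log2 fold change of -0.05. Irf1, an interferon-induced activator of IL-12 family genes, rose from 121 ± 17.9 to 376 ± 51.7 CPM (log2 fold change 1.63). Irf8, its partner at the Il12b promoter, was under the fold change limit with 0.54 (adjusted p = 0.000178 from limma). The lowest values were those of the AP-1 genes Fos (-0.52) and Jun (-0.49), neither of them called. The Rel family members tested, Rel, Rela, Relb, Nfkb1 and Nfkb2, lay between -0.22 and 0.04 and were not called.

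Of 17 receptors and adaptors that induce IL-12, all tested, 4 were called higher and 1 lower, with a median log2 fold change of -0.02. Clec7a (Dectin-1, a receptor for fungal glucans) rose from 117 ± 11.7 to 337 ± 28.4 CPM (log2 fold change 1.53). Tlr12, a profilin sensor, rose by 0.89, Cd40, the receptor through which T cells induce IL-12, by 0.73, and Tlr4, the sensor of lipopolysaccharide, by 0.66 on the log2 scale. Of these, Tlr12 missed the threshold without WT replicate 1 or without miR-21-/- replicate 2, 3 or 4 (limma adjusted p of up to 0.00612) and with no filter, and Cd40 missed it with a pseudocount of 10. Ifngr1, the ligand-binding chain of the IFN-γ receptor, fell by 0.72 on the log2 scale, from 256 ± 26.6 to 154 ± 11.3 CPM, and its partner Ifngr2 was at -0.46, under the fold change limit (adjusted p = 0.000104 from limma).

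Restrainers of IL-12 production, 17 genes all tested, had 1 called higher and 1 lower and a median log2 fold change of -0.14. The called genes were both prostaglandin E2 receptors, Ptger2 with 0.61 and Ptger4 with -0.68. Neither call was stable, as Ptger2 was lost in 7 of 17 alternatives and Ptger4 in 11, and Ptger4 fell under the limits with both other scalings and without any of WT replicates 2 to 4 or miR-21-/- replicates 2 to 4. Without WT replicate 2 or without miR-21-/- replicate 1, 2 or 4, Ptger2 was not called either, and over these left-out samples the limma adjusted p was 0.00497 to 0.00648 for Ptger2 and 0.00587 to 0.00905 for Ptger4. Il10, the cytokine best known for holding IL-12 down, was at 8.95 ± 3.20 CPM in WT TAMs, and 7.55 ± 1.82 CPM in the miR-21-/- TAMs (SD of 4 samples each; adjusted p = 0.564 from limma). Havcr2, a checkpoint receptor, had 0.38, and Irak3, an inhibitor of Toll-like receptor signaling, -0.31, neither called.

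Genes that IL-12 induces in lymphocytes were 12, of which 10 were tested, with 2 called higher and 0 lower and a median log2 fold change of 0.52. Klrk1, the activating receptor NKG2D, rose from 12.6 ± 4.19 to 44.9 ± 4.73 CPM (log2 fold change 1.80), and the chemokine Ccl5 from 3.52 ± 0.478 to 12.9 ± 6.90 CPM (1.51). The call of Ccl5 was lost in 7 of 17 alternatives, among them leaving out any of WT replicates 1 to 4 or miR-21-/- replicate 2 (limma adjusted p of 0.00502 to 0.00737), while that of Klrk1 was kept in all 17. Ifng was at 0.208 to 0.866 CPM in WT TAMs and 0.995 to 3.58 CPM in the miR-21-/- TAMs. The groups did not overlap, a separation in that direction shown by 9.44% of all tested genes. Ifng was not called (log2 fold change 1.11, adjusted p = 0.00554 from limma). With a WT mean of 0.464 CPM, it passed the filter only through its miR-21-/- samples, so that its fit rests on that selection. Prf1 (1.16, adjusted p = 0.0261 from limma) and Gzma (0.08, adjusted p = 0.870 from limma), both of them genes of cytotoxic granules, and Tbx21 (0.35, adjusted p = 0.1005 from limma), which encodes T-bet, were not called. The lowest value of the list was that of Cxcr3 (-0.54, not called). The T and NK marker sums given beside the receptor chains belong to these values too, and their part in them was not tested. Prf1, Gzma and Eomes are in both this list and that of the NK cell markers, so that the NK sum holds some of the same values.

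Cytokines that act with IL-12 were 9 genes, of which 7 were tested, with 2 called higher and 0 lower and a median log2 fold change of 0.39. Il1a rose from 6.12 ± 1.51 to 17.7 ± 3.29 CPM (log2 fold change 1.402) and Tnf from 31.3 ± 6.67 to 61.5 ± 9.29 CPM (0.97), a call that Tnf lost with no filter on low values. Il18, which acts with IL-12 on IFN-γ production, was at -0.10 and not called, and Il15 was under the fold change limit with 0.39 (adjusted p = 0.00457 from limma). Il6 and Tnfsf4 were under the filter, and Il10 is in both this list and that of the restrainers.

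**Figure D5:**
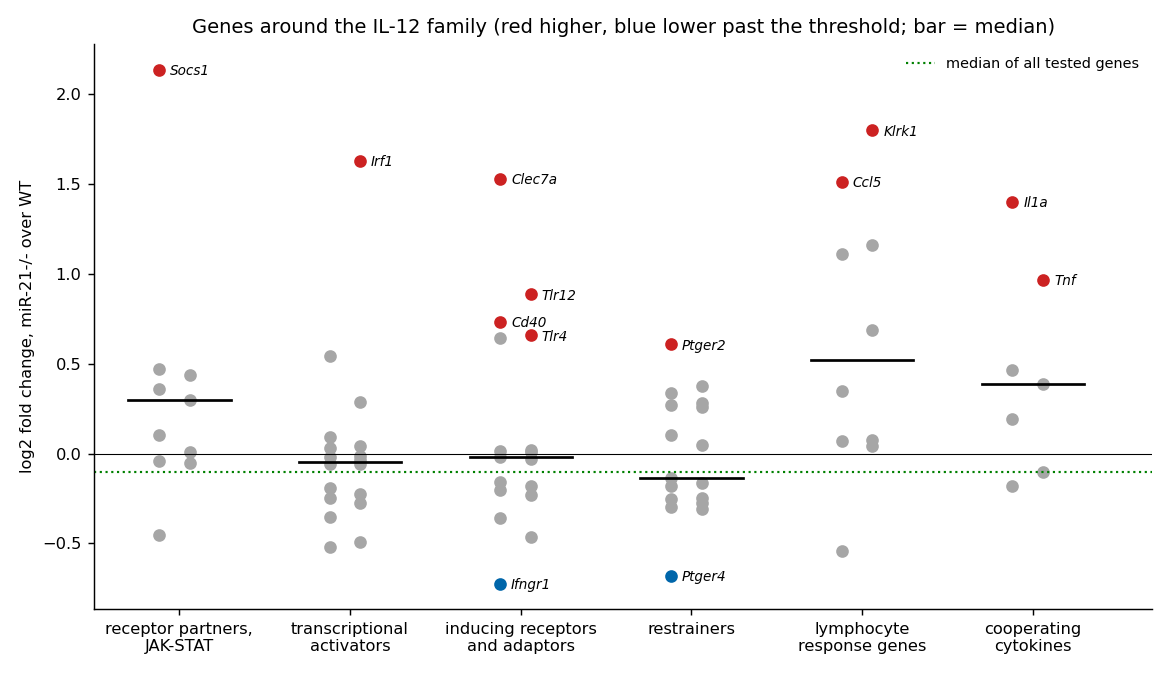
log2 fold change, miR-21-/- over WT, of the tested genes of the 6 lists around the IL-12 family, except a gene not reported here, in red for called higher, blue for called lower and grey for not called, with the median of all tested genes of each list as a black bar and the median of all tested genes (-0.10) as a dotted line. List medians run from -0.14 for restrainers to 0.52 for lymphocyte response genes, and the highest point is Socs1 (2.14).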

How the data were processed

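RNA-Seq of sorted TAMs was analysed in 8 samples, 4 per genotype. The authors deposited CPM values per gene, each raised by 0.0001. The submitters' processing notes name STAR, Partek 7.0 and mm10. The counting rule and strand setting are not given in the sources used here. Among values up to 20 reads, 72.7% to 73.7% per sample were whole reads (tolerance 0.02 of a step), so whole reads were not recovered and no count test was run. Intervals from limma cover the spread between samples.

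From the deposited values, log2(CPM + 1) was modelled by lmFit and eBayes (with trend) of limma 3.58.1 under R 4.3.3, after a filter on the mean of 1 per 1e+06 of the column totals. The limits of 0.005 and 1.5-fold are those that the study gives for its differentially expressed genes. The script was tested on simulated data. Exact permutation tests, two-sided, compared mean CPM for the 8 members over 70 assignments of samples and were not adjusted. Gene positions are those of the deposited table, with the end lowered by 1, and transcript lengths and overlaps are from GENCODE vM21 (GRCm38); 97.1% of the genes with a symbol in it have the same start in both. Levels per kb used the longest protein-coding transcript. Figures were drawn with matplotlib 3.10.9.

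The 8 members, the pathway lists and the cell marker lists were chosen with earlier results of these data known. Genes named are all members, of each pathway list the called genes and the highest and lowest by log2 fold change, the 3 nearest patterns of each called member, and Mir21a; other genes named were chosen after their values were seen. The counts, sums and medians of the lists include genes that are not reported here by name. Alternatives were pseudocounts of 0.1 and 10, no filter or a filter of 5, quantile normalization, the median of ratios, eBayes without the trend, the replicate number as a block, an adjusted p of 0.05 without a fold limit, and each sample left out in turn. Of neutrophil, stromal and epithelial markers, 1 of 7, 4 of 9 and 0 of 3 tested genes were called lower, and none higher.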

Additional observations from a re-analysis of the deposited data

Results flagged for a closer look

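In groups of 4 samples, the highest or lowest sample was singled out where its gap to the nearest of the others, as a share of the group's range, was above Dixon's 95% critical value for 4 samples. Over the 68 groups examined (34 genes in 2 genotypes), 5 had such a sample, while chance gives about 1 in 20. Of the members' 16 groups, 2 had one. Il23a was at 1.51 CPM in WT replicate 4 and at 0.836 to 0.891 CPM in the other WT samples. Il12rb1 was at 21.2 CPM in WT replicate 3 and at 13.3 to 14.3 CPM in the others. Among the pathway genes, Clec7a was lowest in WT replicate 4 with 99.2 CPM against 121 to 124 CPM, Tnf was highest in miR-21-/- replicate 1 with 75.3 CPM against 55.3 to 58.2 CPM, and Il18 was highest in miR-21-/- replicate 4 with 21.8 CPM against 18.4 to 18.8 CPM.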

How the results depend on the processing

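All 6 tested members kept their direction under each alternative that gave them a value. Of the 8 members, 3 were called; this fell to 1 (Il12rb1) with a pseudocount of 10 and with no filter on low values, was 2 with the median of ratios and with quantile normalization, 4 at an adjusted p of 0.05 without a fold limit, and 2 to 3 with 1 sample left out. Over all genes, 986 calls (400 higher, 586 lower, 40.6% higher) became 452 with a pseudocount of 10, 522 with no filter and 4982 at an adjusted p of 0.05 without a fold limit, and 684 to 1002 with 1 sample left out; the causes were not tested. The median of ratios gave 520 higher and 350 lower (59.8% higher) and quantile normalization 491 and 337 (59.3% higher), moving the median of all tested genes from -0.10 to -0.0030 and -0.0076. With the replicate number as a block (replicate block), 3 members and 922 genes were called, 841 of the latter shared, and no member's call changed; the numbers are those of the sample descriptions, while the titles number the miR-21-/- samples differently; same-numbered samples correlated at -0.143 to 0.221, over 0.1 in 1 of 4 pairs, and 1 of 4 WT samples correlated best with its own number, so the numbers were not taken to pair the samples. With 1 sample left out, the exact permutation p of Il12a, Ebi3 and Il12rb2 ranged from 0.0286 to 0.0571, while those of Il27 and Il12rb1 were 0.0286 each time. Over all alternatives, the pathway lists had 2 to 6 called higher and 0 to 1 lower for receptor partners and JAK-STAT factors, 1 to 3 and 0 to 6 for activators, 3 to 4 and 1 to 6 for receptors and adaptors, 0 to 2 and 0 to 4 for restrainers, 1 to 4 and 0 to 1 for lymphocyte genes, and 1 to 4 and 0 for cooperating cytokines. The planned count test was not run, since whole reads were not recovered, and no member had more than 1 row. At this depth, members under 1 CPM rest on few reads.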
